A study of Mus musculus with 24 samples.

Results

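Epicardial marker genes were followed in 24 arrays of mouse cardiac muscle, ventricle only according to the Methods, from caspase-deficient and control hearts. The set consists of 10 genes, the symbols Wt1, Tbx18, Tcf21, Aldh1a2, Upk3b, Upk1b, Msln, Lrrn4, Krt8 and Krt19, out of 18819 genes measured. They were chosen by name as markers of the epicardium, each was represented by the probe set that names it alone and has the highest mean signal, and all 10 were measured. The heart samples came from newborn and young C57/Bl6 mice (C57BL/6J in the Methods; postnatal days 1 to 2 and day 30 per the labels), wild type (WT) or caspase-3 and -7 double knockout (KO), with 6 hearts in each of the 4 groups. In KO mice caspase-7 is missing throughout the body, whereas caspase-3 is floxed and removed by a Cre recombinase under an Nkx2.5 promoter-enhancer that acts in the myocardium. The study's genotyping takes cardiac fibroblasts to carry the floxed allele and not the deleted one, so the genotype of the epicardial cells themselves cannot be read from the group name. Here the genotype of each array rests on its label. The paper genotyped its mice by PCR on tail DNA. Its Western blot found no caspase-7 in knockout mice, and some caspase-3 remained in the neonatal heart.

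The epicardium is the sheet of mesothelial cells that covers the outer surface of the heart. In the embryo some of its cells lose their epithelial shape, move into the heart wall and give rise to cardiac fibroblasts and to the smooth muscle of the coronary vessels, under the control of factors such as Wt1, Tbx18 and Tcf21 and of retinoic acid made by Aldh1a2. After birth the layer becomes quiet, and it can switch its embryonic genes on again after injury. Several of its surface and keratin genes (Msln, Upk3b, Upk1b, Krt8 and Krt19) are shared with the mesothelium of other organs or with other epithelia, and Tcf21 and Tbx18 are also known from fibroblasts and mural cells, so none of the 10 transcripts is made by epicardial cells alone.

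The genes lie on 8 chromosomes of the GRCm38.p6 assembly. Wt1 (positions 105126529 to 105173614) and Lrrn4 (132866686 to 132894010) are both on chromosome 2, and Aldh1a2 (71215789 to 71296243) and Tbx18 (87702800 to 87731260) are both on chromosome 9. Upk3b is on chromosome 5 (136038496 to 136044993), Tcf21 on 10 (22817263 to 22820143), Krt19 on 11 (100140810 to 100145926), Krt8 on 15 (101996711 to 102004342), Upk1b on 16 (38773182 to 38800203) and Msln on 17 (25748613 to 25754378). RefSeq promoter entries were matched for 6 of the 10 genes, namely Aldh1a2, Krt8, Lrrn4, Tbx18, Tcf21 and Upk3b. The entries of 2 surface genes and 2 transcription factors are shown, because these 2 kinds of gene differed in how they varied between hearts. Each is the 250 bases before the transcript start, written 5′ to 3′ on the gene's strand, with capitals for a match to GGAATG or AGATAA on either strand. The Lrrn4 entry belongs to a transcript that starts inside the gene.
Upk3b promoter (chr5:136038246-136038495, plus strand): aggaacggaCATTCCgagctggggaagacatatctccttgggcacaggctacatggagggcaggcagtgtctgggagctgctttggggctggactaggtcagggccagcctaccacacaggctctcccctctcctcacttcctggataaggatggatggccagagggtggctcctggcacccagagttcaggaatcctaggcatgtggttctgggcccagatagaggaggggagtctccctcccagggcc
Lrrn4 promoter (chr2:132880863-132881112, minus strand): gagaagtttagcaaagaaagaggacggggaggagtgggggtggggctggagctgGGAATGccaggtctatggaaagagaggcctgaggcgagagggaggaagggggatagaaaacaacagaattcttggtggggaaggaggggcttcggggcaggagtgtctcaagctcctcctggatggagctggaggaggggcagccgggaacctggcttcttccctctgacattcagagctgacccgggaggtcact
Tbx18 promoter (chr9:87731261-87731510, minus strand): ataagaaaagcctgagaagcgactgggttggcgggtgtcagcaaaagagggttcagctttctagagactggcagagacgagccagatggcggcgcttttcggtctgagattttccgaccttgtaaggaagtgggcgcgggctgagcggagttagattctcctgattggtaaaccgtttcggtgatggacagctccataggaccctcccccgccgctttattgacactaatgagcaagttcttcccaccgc
Tcf21 promoter (chr10:22820144-22820393, minus strand): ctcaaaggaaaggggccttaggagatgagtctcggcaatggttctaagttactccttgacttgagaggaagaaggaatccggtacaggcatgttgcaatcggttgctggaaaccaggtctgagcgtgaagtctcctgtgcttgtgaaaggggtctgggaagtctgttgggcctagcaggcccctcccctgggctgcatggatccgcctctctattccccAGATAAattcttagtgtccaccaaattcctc

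The letters GGAATG, the core bound by TEAD factors of the Hippo pathway, were found in the Lrrn4 and Upk3b promoters and in 12.6% of 32851 promoters of the same length. In Lrrn4 they lay at positions -196 to -191 from the start, and in Upk3b, on the other strand, at -241 to -236. A GATA motif, AGATAA, was found in Krt8 and Tcf21 and in 9.99% of promoters. The E-box CAGCTG, the TATA box TATAAA and the WT1 letters GCGGGGGCG were found in 0 of the 6 promoters, against 13%, 12.4% and 2.57% of all promoters. Both strands were searched, the letters were chosen after the sequences had been seen, and a match is a description of the window only.

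Arrays that stood apart are named first, since several results rest on them. Each newborn array was projected on the 80 genes that passed in the young genotype comparison with no overlap of the 2 groups, where a score of 1 equals the whole young difference. Newborn WT heart 4 had 0.161 and the other newborn WT hearts -0.231 to -0.035. Newborn KO heart 4 had -0.194 and the other newborn KO hearts 0.0806 to 0.284, so these 2 hearts lay with the opposite group. Newborn KO arrays 1, 2 and 6 had the highest mean signals of 11 lung, thymus and liver markers (4.75, 5.35 and 5.55, against 3.3 to 3.8 in all other newborn arrays). Single markers of this list differed. Cd3e was highest in newborn WT arrays 2 and 3 (5.53 and 4.91) and at 3.58 to 4.21 in KO arrays 1, 2 and 6. Sftpc was also above all newborn WT arrays (3.04 to 3.46) in KO arrays 3 and 5 (4.91 and 3.93). Atrial markers are genes with their main expression in another chamber than the one the Methods name. The mean of 12 of them was 7.56 to 9.12 over the newborn arrays and 5.78 to 9.16 over the young arrays. Whether atrial tissue was part of the samples was not tested. The 9 ventricular myocyte markers had means of 11.47 to 11.93 in every array.

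The epicardial factors and the retinoic acid enzyme were lower in every young group than at birth. Signals are log2 values, so a difference of 1 is a doubling, and levels are compared between groups and never between genes. Tbx18, a T-box factor of the epicardium and its descendants, had signals of 7.71 to 7.96 (median 7.89) in newborn WT and 5.7 to 6.43 (median 5.88) in young WT hearts. In KO hearts they were 7.85 to 8.07 (median 7.94) at birth and 5.62 to 6.58 (median 6.19) in young mice. Neither pair of age groups overlapped, and the lowest newborn heart exceeded the highest young heart by more than the range within any newborn group. The log2 difference of Tbx18 was -1.91 ± 0.12 (SE; young at 0.266 of newborn, limma adjusted p = 3.37e-12) in WT and -1.79 ± 0.12 in KO hearts (adjusted p = 1.33e-11, limma). A dimmer probe set of Tbx18 gave means of 5.25 and 4.85 in newborn and young WT hearts and of 5.15 and 5.23 in newborn and young KO hearts, so the lower mean in young KO hearts was seen with the brighter probe set only.

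Tcf21, a basic helix-loop-helix factor needed for the fibroblast lineage, ran from 7.91 to 8.25 (median 8.08) in newborn WT and from 5.74 to 6.82 (median 6.25) in young WT hearts. The KO hearts ran from 8.08 to 8.49 (median 8.26) and from 5.61 to 7.0 (median 6.44). The ages were again separate in both genotypes, with log2 differences of -1.84 ± 0.18 in WT (limma adjusted p = 7.6e-09) and -1.80 ± 0.18 in KO hearts (limma adjusted p = 1.25e-08). Wt1, a zinc finger factor that marks the embryonic epicardium, fell by less. Its signals were 6.63 to 7.13 (median 6.87) and 5.67 to 6.43 (median 6.17) in newborn and young WT hearts, and 6.69 to 7.28 (median 7.1) and 6.18 to 6.76 (median 6.37) in newborn and young KO hearts. The WT ages were separate and the KO ages overlapped, between 6.69 and 6.76. Wt1 differences were -0.73 ± 0.14 in WT (limma adjusted p = 6.68e-05) and -0.61 ± 0.14 in KO hearts (limma adjusted p = 0.000609).

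Aldh1a2, which oxidizes retinal to retinoic acid, was at 7.71 to 8.53 (median 8.36) in newborn WT hearts and at 6.09 to 6.91 (median 6.65) in young WT hearts. In KO hearts it was at 7.56 to 8.25 (median 7.79) and at 6.22 to 7.27 (median 6.91). The age groups did not overlap in either genotype. The differences were -1.73 ± 0.17 in WT hearts (limma adjusted p = 4.97e-09) and -0.97 ± 0.17 in KO hearts (limma adjusted p = 3.03e-05).

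**Figure D1:**
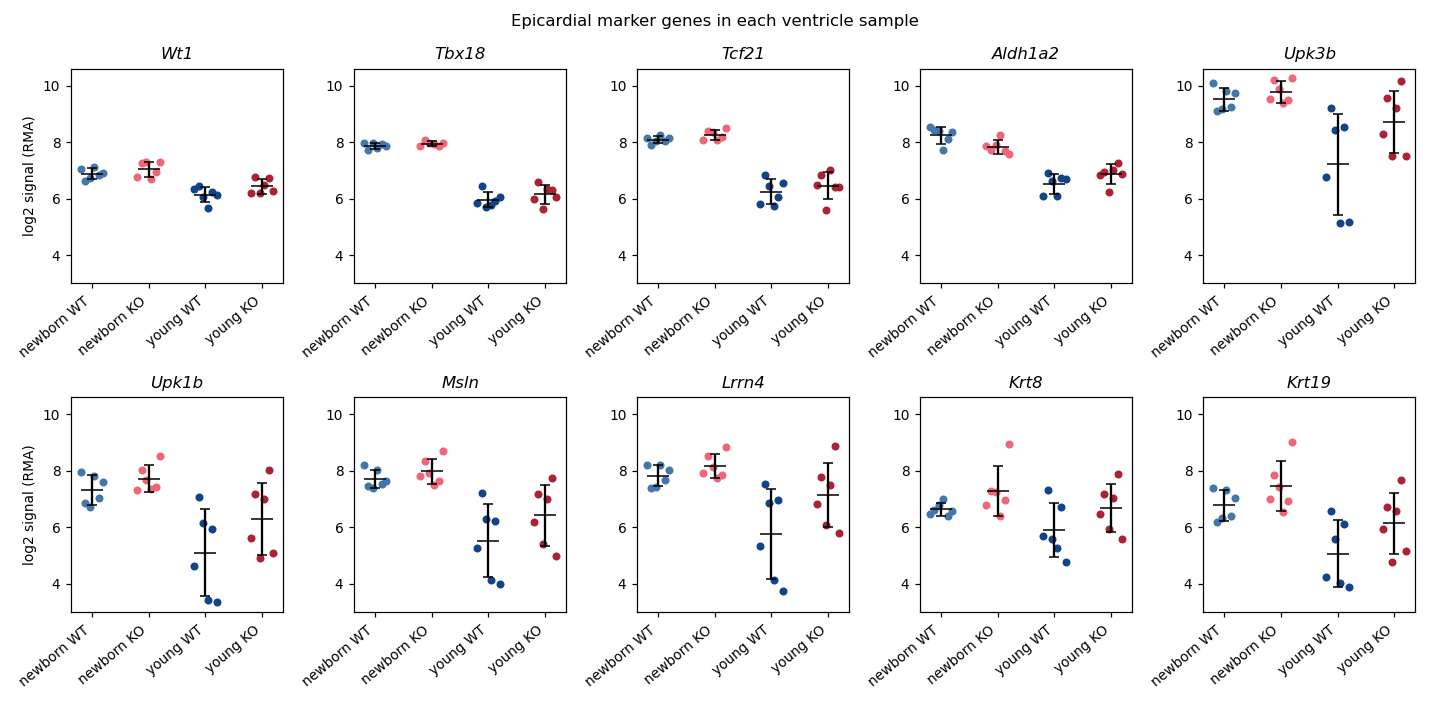
Log2 signal (RMA, y axis) of the 10 epicardial genes in each of the 24 heart samples, 1 point per heart, with a black bar for the mean ± SD of 6 hearts per group. Tbx18, Tcf21 and Aldh1a2 were separate between newborn and young hearts in both genotypes, whereas the surface and keratin genes spread widely in young hearts, as for Upk3b from 5.13 to 10.17.

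The genes of the mesothelial surface also had lower means in young hearts, with a much larger spread. Upk3b, a uroplakin found on mesothelium, ran from 9.11 to 10.09 (median 9.48) in newborn WT hearts and from 5.13 to 9.22 (median 7.59) in young WT hearts. In KO hearts it ran from 9.38 to 10.25 (median 9.69) and from 7.49 to 10.17 (median 8.74). Young hearts with a newborn-like signal stood beside hearts with a signal far below it, as young WT hearts 2 and 4 did at 9.22 and 5.13. The difference between the ages was -2.31 ± 0.57 in WT hearts (young at 0.202 of newborn, limma adjusted p = 0.00154). In KO hearts it was -1.07 ± 0.57 and did not pass (limma adjusted p = 0.108).

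Upk1b, a tetraspanin partner of uroplakins, was at 6.72 to 7.97 (median 7.32) in newborn WT and at 3.36 to 7.07 (median 5.29) in young WT hearts. Newborn and young KO hearts had 7.33 to 8.53 (median 7.56) and 4.9 to 8.02 (median 6.3). All but 1 of the young WT hearts, number 2, lay below the lowest newborn WT heart. The Upk1b difference was -2.24 ± 0.56 in WT (limma adjusted p = 0.00166) and -1.43 ± 0.56 in KO hearts (limma adjusted p = 0.032). Msln, the cell-surface glycoprotein mesothelin, had 7.39 to 8.2 (median 7.58) against 3.98 to 7.23 (median 5.75) in WT hearts, newborn before young, with no overlap. The KO hearts had 7.51 to 8.7 (median 7.87) and 5.0 to 7.74 (median 6.61) and overlapped through young KO heart 5. Msln fell by 2.18 ± 0.47 in WT (limma adjusted p = 0.000353) and by 1.57 ± 0.47 in KO hearts (limma adjusted p = 0.00653).

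Lrrn4, a leucine-rich repeat membrane protein, was at 7.41 to 8.21 (median 7.86) in newborn WT and 3.76 to 7.52 (median 6.1) in young WT hearts. The KO signals were 7.76 to 8.86 (median 8.04) and 5.79 to 8.87 (median 7.17). Only young WT heart 2 reached the newborn WT range, while young KO hearts 2 and 5 reached the newborn KO range. Its difference was -2.06 ± 0.54 in WT hearts (limma adjusted p = 0.00237) and -1.04 ± 0.54 in KO hearts, which did not pass (limma adjusted p = 0.0971).

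The 2 keratins, partners in the intermediate filaments of simple epithelia and mesothelia, are described together. Krt19 ran from 6.18 to 7.41 (median 6.72) in newborn WT and from 3.9 to 6.59 (median 4.91) in young WT hearts, and from 6.56 to 9.04 (median 7.21) and 4.76 to 7.68 (median 6.25) in KO hearts. Both pairs overlapped, and the differences were -1.70 ± 0.50 in WT (limma adjusted p = 0.00653) and -1.32 ± 0.50 in KO hearts (limma adjusted p = 0.0269). Krt8 ran from 6.41 to 7.0 (median 6.59) and from 4.78 to 7.33 (median 5.64) in newborn and young WT hearts, and from 6.4 to 8.96 (median 7.11) and 5.59 to 7.88 (median 6.75) in newborn and young KO hearts. Young WT heart 2 had more Krt8 signal than any newborn WT heart, and the differences of -0.74 ± 0.41 and -0.60 ± 0.41 did not pass (limma adjusted p = 0.148 in WT and 0.211 in KO hearts). The airway marker Scgb1a1 was at 7.74 in young WT heart 2 and at 3.06 to 5.12 in the other young WT hearts. The lung marker Sftpc and the epithelial marker Cdh1 were at 3.04 and 3.32 in young WT heart 2, and the part of airway RNA in its Krt8 signal was not tested.

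For 8 of the 10 genes the group means ran, from high to low, newborn KO, newborn WT, young KO and young WT. For Aldh1a2 newborn WT stood first, and for Krt8 the young KO mean of 6.68 stood just above the newborn WT mean of 6.64. The genotypes of the same age did not pass for any gene with all arrays in the fit. In WT hearts 9 of the 10 genes were lower in young than in newborn mice, where 27.9% of all genes tested were lower. In KO hearts 7 of 10 were lower, where 25% of all genes were. The groups did not overlap for 5 genes in WT hearts (Wt1, Tbx18, Tcf21, Aldh1a2 and Msln; 18.2% of all genes were separate in this direction) and for 3 genes in KO hearts (15.1%). The median difference was -1.87 in WT and -1.20 in KO hearts, beside 0.00242 and 0.0983 over all genes. Centring each array on its median moved the median over all genes to 0.26 in WT and 0.27 in KO hearts, with the epicardial medians at -1.62 and -1.03, and the counts of 9 and 7 were the same. In bulk tissue the number of epicardial cells, their share of the tissue sampled and their RNA per cell cannot be told apart. The KO count rests partly on single hearts and was 5 to 9 when each array was left out in turn. Upk1b lost its call without newborn KO heart 2 or 6 or young KO heart 1, 3 or 6 (limma adjusted p = 0.0557 to 0.0883), Krt19 lost it without newborn KO heart 2 or 6 or young KO heart 3 or 6 (0.0511 to 0.0796), and Upk3b and Lrrn4 gained one without young KO heart 5. A new quantile normalization also ended the KO calls of Upk1b and Krt19 (limma adjusted p = 0.0593 and 0.0509), a variance trend with robust moderation ended that of Upk1b (0.0504), and a fit of the 12 KO arrays alone called Upk3b (0.0376). Without newborn KO arrays 1, 2 and 6 it was 4, and Upk1b, Msln and Krt19 no longer passed (limma adjusted p = 0.167, 0.0816 and 0.243).

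**Figure D2:**
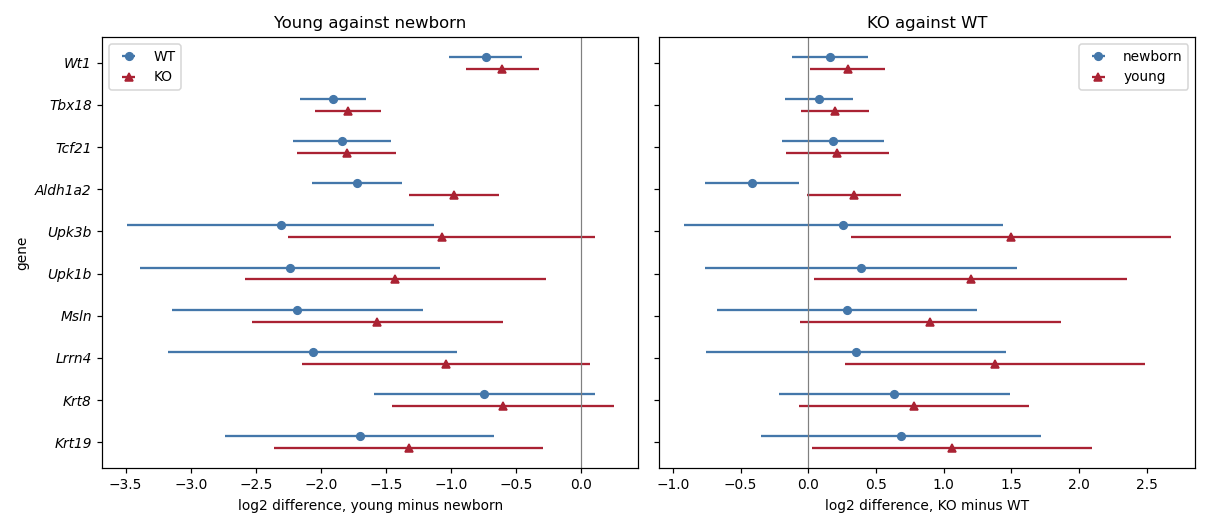
Differences in log2 signal (x axis) for each epicardial gene (y axis) between young and newborn hearts of each genotype (left) and between KO and WT hearts of each age (right), with 95% confidence intervals from the limma fit of 24 arrays. Every young minus newborn difference lies below 0, from -0.60 to -2.31, and every young KO minus WT difference lies above 0, from 0.20 to 1.496, with wide intervals for the surface genes.

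The spread between hearts differed between the 2 kinds of gene, though their SDs overlapped in newborn WT hearts (0.1 to 0.3 and 0.22 to 0.54). For Wt1, Tbx18, Tcf21 and Aldh1a2 the median SD was 0.15 (WT) and 0.21 (KO) in newborn hearts and 0.31 (WT) and 0.34 (KO) in young hearts. For the 6 surface and keratin genes it was 0.39, 0.46, 1.42 and 1.09 in the same order, beside 0.14, 0.13, 0.17 and 0.18 over all genes. The signals of these genes thus spread more in young than in newborn hearts, except for Krt8 in KO hearts (SD 0.88 newborn and 0.85 young). The fit, which takes 1 variance per gene over all groups, gave Upk3b a standard error of 0.57 in the young comparison where the 12 young arrays alone gave 0.72 (limma adjusted p = 0.459 there).

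The same hearts stood at the ends for most of the genes. Young WT heart 2 had the highest signal of its group for 10 of 10 genes. Young WT heart 4 was lowest for Wt1, Tcf21, Upk3b and Aldh1a2, heart 6 for Upk1b, Msln, Krt8, Krt19 and Lrrn4, and heart 3 for Tbx18. In young KO hearts number 5 was highest for 7 genes, among them all 6 surface and keratin genes, and number 3 was lowest for 7. In newborn KO hearts number 6 was highest for 7 genes, again with all 6 surface and keratin genes, and number 4 was lowest for 7. After the group means were subtracted, each gene was set against the mean of the other 9 over the 24 arrays, which share their hearts and their normalization. Pearson's r was 0.982 for Upk1b, 0.976 for Msln, 0.961 for Lrrn4, 0.958 for Upk3b and 0.946 for Krt19. It was 0.835 for Krt8, 0.719 for Wt1, 0.588 for Tbx18, 0.587 for Tcf21 and 0.418 for Aldh1a2, so the factors and the enzyme followed the mean of the other 9 less closely. The surface and keratin genes spread most and are the larger part of each such mean, so this order is partly built in.

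Atrial transcripts moved with the surface genes in young hearts. The mean of the 12 atrial markers in young WT hearts 1 to 6 was 6.01, 8.63, 5.9, 5.78, 7.44 and 6.18, and that of the 6 surface and keratin genes was 5.32, 7.49, 6.49, 4.35, 6.76 and 4.16. In young KO hearts the atrial means were 8.02, 9.16, 6.13, 8.17, 9.02 and 7.66, and the surface means 6.56, 7.6, 5.77, 7.38, 8.39 and 5.69. Hearts with much atrial signal mostly had much surface signal, with exceptions: WT heart 3 had a surface mean of 6.49 beside a low atrial mean of 5.9, and KO heart 6 had a surface mean of 5.69 beside an atrial mean of 7.66. The factors and Aldh1a2 varied less, with means of 5.82 to 6.65 in the young WT group and of 5.91 to 6.78 in the young KO group. The young arrays fall into groups of low and high atrial signal, so no correlation is given. Other cell types moved too. Fibroblast marker means were 8.39 to 9.89 in the young WT group and 8.45 to 10.17 in the young KO group, and adipocyte marker means were 8.11 in young WT heart 2, 7.83 in young KO heart 2, 6.53 in young KO heart 4 and 4.6 to 5.66 in the other young hearts.

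**Figure D3:**
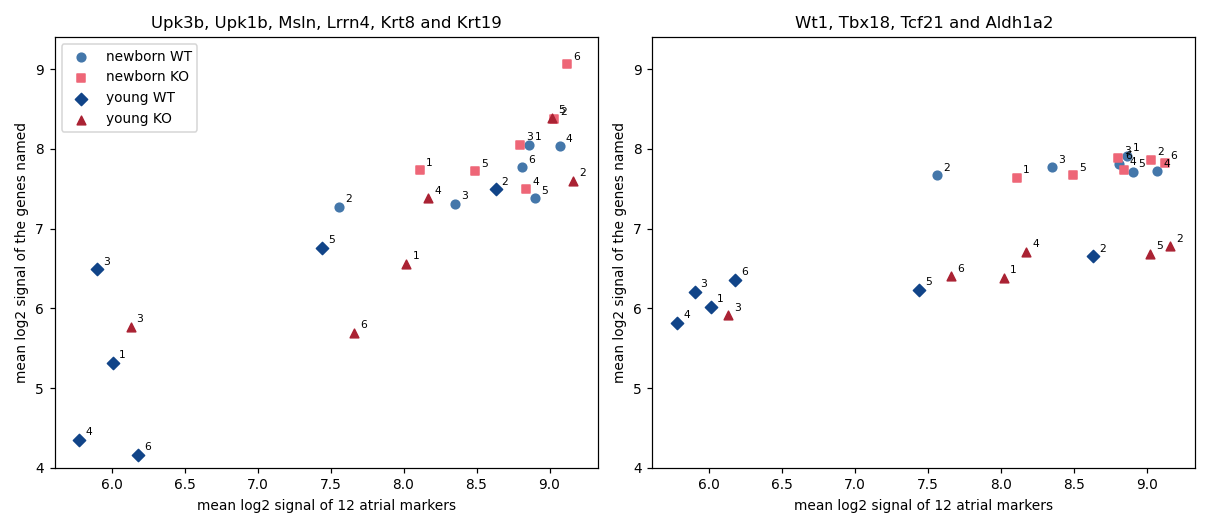
Mean log2 signal of 12 atrial markers (x axis) against that of the 6 surface and keratin genes (left) and of Wt1, Tbx18, Tcf21 and Aldh1a2 (right), 1 numbered point per array and 1 symbol per group. Young hearts run from an atrial mean of 5.78 to 9.16 and a surface mean of 4.16 to 8.39, and the 4 genes on the right lie between 5.82 and 6.78 in young and between 7.64 and 7.91 in newborn hearts.

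Whether caspase deficiency changed epicardial transcripts was asked at each age. In newborn hearts 0 of 10 genes passed in the limma fit, as did 0% of all genes (0 of 18819), and at an unadjusted p under 0.05 the numbers were 1 and 1707. The median difference of KO minus WT was 0.273 over the 10 genes and -0.0491 over all genes. Above 0 were 9 of 10, beside 5878 of 18819 over all genes. The factors lay close together, with differences of 0.16 for Wt1, 0.08 for Tbx18 and 0.18 for Tcf21 (limma adjusted p = 0.725, 0.865 and 0.77). The interval for Tbx18 ran from -0.18 to 0.33. The surface genes differed by 0.26 (Upk3b), 0.39 (Upk1b), 0.29 (Msln) and 0.35 (Lrrn4), with limma adjusted p between 0.846 and 0.909. Newborn KO heart 6 was the highest of its group for each of them. Without newborn KO arrays 1, 2 and 6, which had the most lung, thymus and liver signal, they differed by 0.05, 0.15, -0.01 and 0.09. The part of RNA from other organs in these signals was not tested otherwise. All 10 genes overlapped between the genotypes at both ages, where 0.489% of all genes were separate in newborn and 0.824% in young hearts.

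Aldh1a2 was the gene below 0 in newborn KO hearts. Newborn WT hearts 1 to 6 had signals of 8.53, 8.42, 8.38, 7.71, 8.09 and 8.34, and newborn KO hearts had 7.85, 7.73, 7.91, 8.25, 7.69 and 7.56. The 2 hearts numbered 4 were the lowest of the WT and the highest of the KO group. Leaving them out therefore widens the difference in any case and lends it no support. Without them the groups did not overlap, and the share of all genes separate in that set was not computed. The difference was -0.41 ± 0.17 (unadjusted p = 0.021, limma adjusted p = 0.473) with all arrays and -0.60 ± 0.16 without those 2 (limma adjusted p = 0.0499, in a fit that called 482 of all genes). These are the arrays whose scores lay with the opposite group, and whether they were exchanged was not tested.

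Krt8 and Krt19 had the largest newborn differences of the 10 genes, 0.64 ± 0.41 and 0.69 ± 0.50 (limma adjusted p = 0.66 and 0.688), and newborn KO heart 6 carried much of them. Its signals were 8.96 for Krt8 and 9.04 for Krt19, and the other newborn KO hearts had 6.4 to 7.28 and 6.56 to 7.84. Markers of airway and lung were high in the same heart. Scgb1a1, the secretoglobin of airway club cells, had a signal of 10.98 there and of 2.74 to 3.03 in newborn WT hearts, and Sftpc, surfactant protein C, had 7.91 against 3.04 to 3.46. The epithelial cadherin Cdh1 had 6.8 against 3.18 to 3.37, and Epcam 4.58 against 2.66 to 3.21. Newborn KO heart 2 had 7.49 for Scgb1a1, and the liver gene Alb was at 9.93 and 10.42 in newborn KO hearts 1 and 2, where WT hearts had 3.27 to 5.59. Without newborn KO heart 6 the differences were 0.30 for Krt8 and 0.37 for Krt19, and without hearts 1, 2 and 6 they were 0.23 and 0.19. Of the newborn KO hearts kept in that last fit, numbers 3, 4 and 5 had Sftpc signals of 4.91, 3.04 and 3.93, so it was not free of lung signal. The part of lung or liver RNA in the keratin signals was not tested otherwise.

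**Figure D4:**
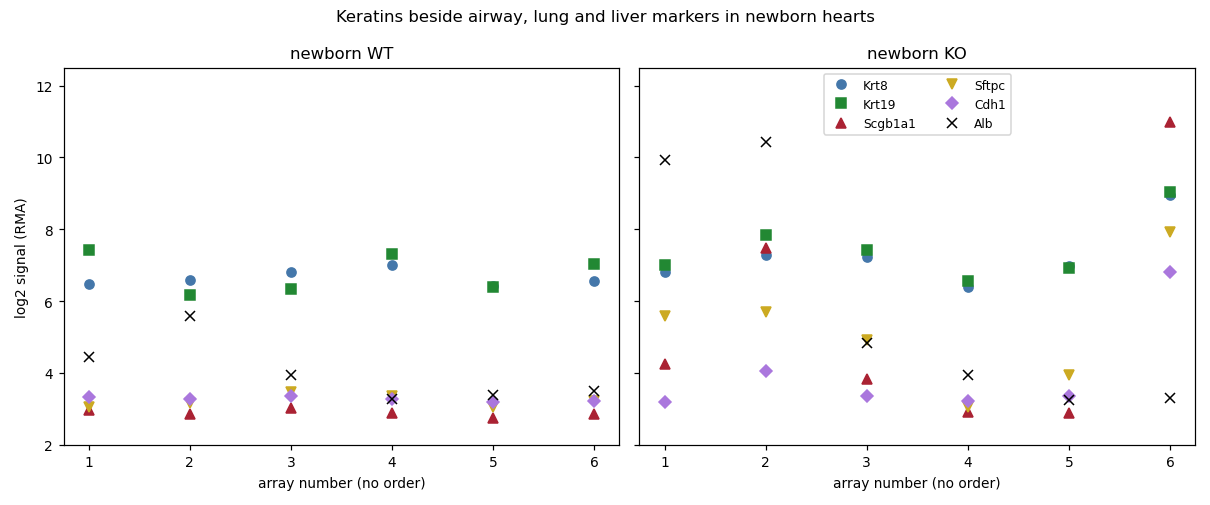
Log2 signal (RMA, y axis) of Krt8, Krt19, the airway and lung markers Scgb1a1 and Sftpc, the epithelial marker Cdh1 and the liver marker Alb in each newborn WT (left) and newborn KO array (right), by array number, which carries no order. KO array 6 is highest for both keratins, at 8.96 and 9.04, and for Scgb1a1, Sftpc and Cdh1, and Alb is highest in KO arrays 1 and 2.

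In young hearts all 10 differences of KO minus WT were above 0, beside 11335 of 18819 over all genes. The 10 genes share their hearts and normalization, so these directions are not independent. In the limma fit 0 of 10 passed, where 1.02% of all genes did (192 of 18819). At an unadjusted p under 0.05 there were 5 of 10 and 2821 of all genes. The median was 0.842 over the 10 genes and 0.0331 over all genes. Upk3b differed by 1.496 ± 0.57 (2.82-fold, interval 0.32 to 2.68, limma adjusted p = 0.206). Lrrn4 differed by 1.38 ± 0.54 (2.6-fold, limma adjusted p = 0.213), Upk1b by 1.20 ± 0.56 (limma adjusted p = 0.311), Krt19 by 1.06 ± 0.50 (limma adjusted p = 0.315), Msln by 0.90 ± 0.47 (limma adjusted p = 0.368) and Krt8 by 0.78 ± 0.41 (limma adjusted p = 0.379). The factors had smaller differences, 0.29 ± 0.14 for Wt1, 0.20 ± 0.12 for Tbx18 and 0.22 ± 0.18 for Tcf21, and Aldh1a2 differed by 0.34 ± 0.17 (limma adjusted p = 0.312 to 0.629). These intervals reach past a 2-fold difference for every surface gene, so neither a change nor its absence was established for them.

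Young WT heart 2 bore on these values. Without it the Upk3b difference was 1.90 and passed (limma adjusted p = 0.0486, in a fit that called 784 of all genes), and that of Lrrn4 had an adjusted p of 0.0584 (limma). With the atrial mean as a covariate in a fit of the 12 young arrays, the differences were 0.14 for Upk3b, 0.15 for Lrrn4, -0.15 for Upk1b, -0.11 for Krt19, -0.20 for Msln and -0.15 for Krt8. Wt1 was then at 0.05, Tbx18 at -0.13, Tcf21 at -0.17 and Aldh1a2 at -0.0099, the median was -0.118, and adjusted p-values ran from 0.789 to 0.995 (limma). In that fit 7 of 10 genes changed sign. The atrial markers were themselves higher in young KO hearts (12 of 13 above 0, median 1.16, 0 passed), so the covariate and the genotype are not independent and their parts cannot be told apart. Fibroblast markers were also above 0 in young KO minus WT hearts for 11 of 11 genes (median 0.706, 0 passed, 9 at an unadjusted p under 0.05), and smooth muscle markers for 6 of 7 (median 0.872, 0 passed, 4 at an unadjusted p under 0.05). The mean of the 7 smooth muscle markers was 7.1 to 8.79 (median 7.36) over young WT and 7.34 to 9.29 (median 8.87) over young KO arrays, and their part in the epicardial differences was not tested.

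**Figure D5:**
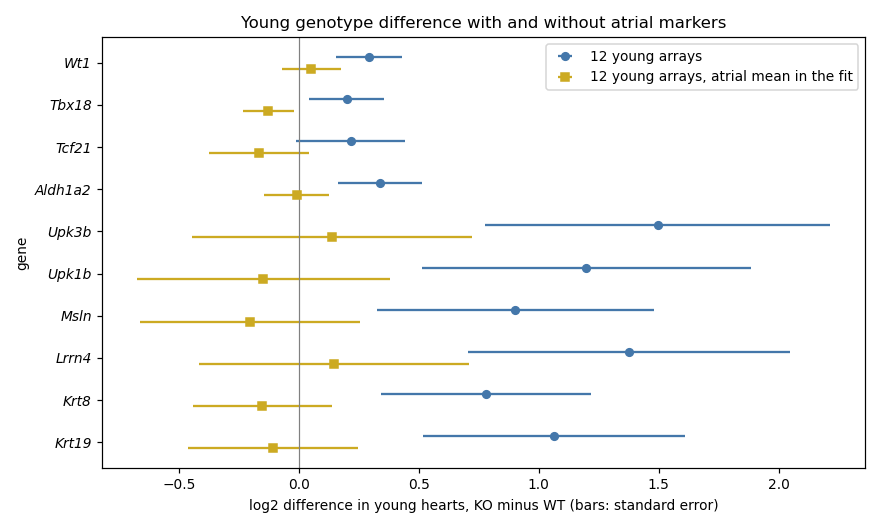
Difference in log2 signal between young KO and WT hearts (x axis) for each epicardial gene (y axis) in a limma fit of the 12 young arrays without and with the mean of 12 atrial markers as a covariate, with bars for 1 standard error. Upk3b moves from 1.496 to 0.14 and Msln from 0.90 to -0.20, and all 10 values lie between -0.20 and 0.15 with the covariate.

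The difference between the genotype effects at the 2 ages passed for 0 of 10 genes (limma), where 0.0106% of all genes passed (2 of 18819). Aldh1a2 had the smallest p, as KO hearts were lower at birth and higher in young mice, with a difference of 0.75 ± 0.24 (unadjusted p = 0.00414, limma adjusted p = 0.248). It was the sole one of the 10 with an unadjusted p under 0.05, and over all genes there were 2427. The values of the surface genes were 1.24 for Upk3b, 1.02 for Lrrn4, 0.81 for Upk1b and 0.62 for Msln, with intervals that included 0 (for Upk3b -0.43 to 2.91).

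Other genes of the same cells and pathways were counted in the same fit. Of 16 further epicardial and mesothelial genes 14 were measured, and 9 (WT) and 7 (KO) were lower in young than in newborn hearts, with 0 higher. Over all genes 27.9% (WT) and 25% (KO) were lower, and 19.2% and 34% higher. Ezr, the ezrin linker between membrane and actin, fell by 0.92 in WT (limma adjusted p = 3.38e-11) and by 0.79 in KO hearts (5.53e-10), the mesothelial zinc finger factor Bnc1 by 1.26 (0.000114) and 1.38 (4.06e-05), and the guidance cue Sema3d by 1.63 (0.00015) and 1.14 (0.00444). Ezr did not share the extremes of the epicardial genes among young hearts. It was at 9.08 in young WT heart 2 (group 9.05 to 9.4) and was highest of its group in young KO heart 3 (9.45). Between genotypes 0 of 14 passed at either age, with medians of 0.318 in newborn and 0.60 in young hearts. Krt18, the usual partner of Krt8, fell by 1.40 in WT and by 0.94 in KO hearts (limma adjusted p = 0.000933 and 0.0173). Of the urothelial uroplakins, Upk2 rose by 0.34 in KO hearts between the ages (limma adjusted p = 0.0106), and Upk1a and Upk3a passed in none of the 5 comparisons. The Upk2 means in KO hearts were 3.94 (newborn) and 4.28 (young), low signals below the array medians of 5.31 to 5.78.

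Aldh1a2 belongs to a pathway whose other members did not all move with it. Of 16 measured genes of retinoic acid synthesis, transport, signalling and breakdown, 6 were higher and 4 lower in young than in newborn WT hearts, and 6 and 1 in KO hearts. Over all genes 19.2% were higher in WT and 34% in KO hearts, so the share of higher genes in KO hearts was near that of all genes. Lower were 27.9% of all genes in WT and 25% in KO hearts, so the share of lower genes in WT hearts was also near that of all genes. The receptor Rxrg rose by 3.69 in WT and by 4.10 in KO hearts (limma adjusted p = 4.19e-17 and 6.69e-18), and Dhrs3, which turns retinal back to retinol, rose by 1.09 and 1.11 (2.36e-10 and 2.22e-10). The receptor Rara fell by 0.75 and by 0.80 (8.55e-09 and 3.01e-09). Between genotypes 0 of 16 passed at either age.

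Of 22 measured genes of epicardial signalling and of the transition to mesenchyme, 12 were lower in young than in newborn WT hearts and 9 in young than in newborn KO hearts, and 0 were higher. The shares of all genes were 27.9% (WT) and 25% (KO) lower, and 19.2% and 34% higher. Snai2, a repressor that drives the transition, fell by 1.12 in WT and by 1.15 in KO hearts (limma adjusted p = 6.6e-10 and 5.4e-10), and the growth factor Pdgfa by 0.84 and 0.69 (1.46e-11 and 6.69e-10). Vcam1, an adhesion molecule made by epicardial and other cells, fell by 2.00 in WT and by 1.23 in KO hearts (3.41e-11 and 1.52e-07). It was also the 1 gene of the list that passed between genotypes in young hearts, where 1.02% of all genes did. Its signals overlapped, at 6.18 to 7.32 (young WT) and 6.77 to 7.64 (young KO), with a difference of 0.76 ± 0.15 (limma adjusted p = 0.0108). Vcam1 was not followed in the alternative fits. Over all genes this comparison called 19 with the 12 young arrays alone and 784 without young WT heart 2. Young WT heart 2 had the highest Vcam1 signal of its group and young KO heart 3 the lowest of its own, which were also the hearts with high and low epicardial signals.

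The genes most like the epicardial mean across the 24 arrays were Slc39a8, Sema3d, Cybrd1, Rpp25 and Tm4sf5, with Pearson's r of 0.979, 0.978, 0.973, 0.969 and 0.968. After the group means were subtracted they were Efemp1 (0.972), Gpm6a (0.969), Igfbp6 (0.964), Slc39a8 (0.948) and Chrdl1 (0.947). These values describe likeness over arrays that share their hearts and normalization, and 3 of the genes, Sema3d, Efemp1 and Gpm6a, were on the list of further epicardial and mesothelial genes.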

How the data were processed

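RNA of 24 hearts, from ventricle according to the Methods, was hybridized to whole-transcript Affymetrix mouse arrays, 6 per group. The authors deposited log2 signals after RMA, which corrects background, normalizes between arrays and summarizes probes. Tools named in the submitters' notes are R version 2.15, oligo version 1.22 and limma version 3.14. Of 35017 probe sets 21118 name 1 gene, 1735 several and 12164 none, and 21085 were matched by Entrez identifier to GRCm38.p6 (0 symbols changed). The brightest probe set stood for each of 18819 genes, with values of 1.07 to 13.5, array medians of 5.31 to 5.78, and 0 of 276 array pairs identical.

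A limma model (version 3.58.1, R version 4.3.3) fitted group means to all 24 arrays (20 residual degrees of freedom), Benjamini-Hochberg adjustment over all genes and an adjusted p under 0.05, and the procedure was checked on simulated data. The number of arrays limits the precision. Some genes are not reported here. Groups follow the labels, which number the hearts but give neither batch nor the sex of a sample. According to the Methods the wild-type hearts came from males and females in equal numbers, and sex was not in the model. The members, the other gene lists and the tests were chosen with earlier results of these data known. All 10 members were named in every comparison, with up to 3 called genes of each other list by smallest adjusted p and, by correlation, the 5 genes most like the members' mean. The alternatives comprised scaling, filters, probe-set choice, weighted arrays, a block for the replicate number, subsets of arrays, an atrial covariate and each array left out in turn. A newborn atrial covariate and the removal of newborn KO arrays 1, 2 and 6 were added after seeing the data.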

Additional observations from a re-analysis of the deposited data

Results flagged for a closer look

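In newborn KO heart 6 the Krt8 signal of 8.96 lay far from the others of its group, with the next at 7.28 and the lowest at 6.4, so that the gap to the nearest heart was 0.655 of the whole range. This was 1 of 40 sets of 6 arrays examined, 10 genes in 4 groups, where chance alone sets apart about 1 in 20. The airway and lung markers Scgb1a1 and Sftpc were highest in the same heart, at 10.98 and 7.91, and the part of this RNA in the Krt8 signal was not tested.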

How the results depend on the processing

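Of 1710 values recomputed for the 10 genes in 5 comparisons, 1666 kept their direction and their side of the threshold, 15 lost and 6 gained significance, and 23 changed sign. The number of epicardial genes called was 9 to 10 between ages in WT hearts over 34 alternatives, 4 to 9 in KO hearts over 34, 0 to 1 between genotypes at each age over 35, and 0 for the difference between ages in all 33. It was 4 in KO hearts without newborn KO arrays 1, 2 and 6 and 1 in newborn hearts without the arrays numbered 4 (Aldh1a2). With each array left out in turn it was 5 to 9 between ages in KO hearts and 0 to 1 between genotypes in young hearts, where Upk3b passed without young WT array 2. Krt8 passed between ages in WT hearts (-1.03, limma adjusted p = 0.0342) without that array, and Upk3b and Lrrn4 passed between ages in KO hearts (-1.37 and -1.39, limma adjusted p = 0.0477 and 0.0281) without young KO array 5. Over all genes, the young genotype comparison called 192 with all arrays, 19 with the 12 young arrays alone, 8 with the atrial covariate, 288 with array weights and 784 without young WT array 2. The newborn one called 0, 31 with array weights and 482 without the arrays numbered 4.

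Signs changed as follows. For the difference between ages, Tcf21 (0.03) was at -0.050 with centred arrays, -0.041 with a new quantile normalization and -0.036 without the newborn arrays numbered 4, and at -0.073 to 0.20 with each array left out. Krt8 (0.14) was at -0.10 without the newborn arrays numbered 4 and at -0.10 to 0.48 with each array left out. In newborn hearts Tbx18 (0.08) was at -0.011 with the mean of its probe sets and Msln (0.29) at -0.012 without KO arrays 1, 2 and 6. In young hearts the atrial covariate turned Tbx18 (-0.13), Tcf21 (-0.17), Upk1b (-0.15), Msln (-0.20), Krt8 (-0.15), Krt19 (-0.11) and Aldh1a2 (-0.0099). The causes were not tested.

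With the replicate number as a block the counts were 7 (KO) and 9 (WT) between ages and 0 in the 3 other comparisons, as without it, and it changed no call of the 10 genes. Pairing by number was not adopted, since not every pair of same-numbered hearts had deviations that correlated above 0.1. The correlations ran from -0.438 to 0.13 between newborn WT and KO hearts, with 2 of 6 above 0.1, and from -0.222 to 0.645 between young ones, with 3 of 6 above 0.1. Of the 6 young pairs 4 correlated best with their own number, which is a hint from the data and not from the design.

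Array signal sets no absolute level, so genes were compared with themselves only, and RNA amounts per cell are unknown. For the 6 surface and keratin genes the pooled variance lies below the spread of either young group.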
